A study of Sus scrofa with 24 samples.

Results

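Pig bronchial epithelial cells that had been kept for 24 h with flagellin were compared with cells given the same flagellin after the p38 inhibitor SB203580. The comparison takes 8 of the 24 libraries of the series, 4 with the inhibitor and 4 without, and pairs them by the replicate number in their labels. The cells came from the bronchi of wild type pigs 1 month old and had been cultured at an air-liquid interface. The control cultures, called flagellin below, were kept in DMSO for 1 h before the 24 h with flagellin at 100 ng/ml. The other cultures, called SB203580 plus flagellin, had SB203580 at 20 µM in that hour in place of DMSO, followed by the same flagellin. Cultures with DMSO and PBS in place of flagellin, 4 at 24 h, are given as a background level. All of these cultures were therefore exposed either to SB203580 or to its solvent. The 24 libraries of the series include no culture with SB203580 alone, so the effect of the inhibitor without flagellin was not measured. The labels do not say whether the 4 replicates of a group were separate animals or separate cultures, so each p-value rests on library-to-library spread, part of which may be technical.

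Flagellin, the protein of the bacterial flagellum, is bound by TLR5 on airway epithelium, and the receptor signals through MYD88 to NF-kB and to the MAP kinases. The p38 kinases are switched on by the kinases MKK3 and MKK6, act through MK2 on the stability of inflammatory mRNAs, and are switched off by dual-specificity phosphatases. SB203580 is a pyridinyl imidazole that occupies the ATP pocket of p38 alpha and p38 beta and also binds several other kinases. The aryl hydrocarbon receptor, a ligand-activated transcription factor of barrier epithelia, is known for switching on the cytochrome P450 genes of family 1 when planar or heterocyclic compounds enter the cell.

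The 8 libraries held 30757560 to 34586749 counts in pig genes, and 15878 to 16436 genes had at least 1 count. A gene with a count of 0 could have had up to 3 counts, which is 0.0867 to 0.0975 CPM in these libraries (CPM is the count scaled to a common library size), a limit that covers counting error only. The first principal component of the 12 libraries of 24 h, 63% of their variance, set replicates 1 and 2 (-69.4 to -41) apart from replicates 3 and 4 (45.5 to 56.9), in every treatment. On the second component, 13.4% of the variance, replicate 2 of flagellin lay at -42.4 and the first 2 replicates with SB203580 at -31.2 and -17.1, while replicate 1 of flagellin lay at 33.1, beside PBS (32.4 and 39.4). The epithelial genes EPCAM (247 to 364 CPM) and CDH1 (1090 to 1399 CPM) were high in all 8 libraries, the T cell gene CD3E had no count in any, and the leukocyte gene PTPRC reached at most 0.116 CPM. Other leukocyte markers had counts in all 8, namely CD68 (18.5 to 30.5 CPM) and CD14, given further on. Of endothelial markers, KDR held 126.5 to 472 CPM and PECAM1 3.68 to 6.35 CPM, while CDH5 reached at most 0.0599 CPM.

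Of 14172 genes tested, 1 gene (0.00706%) changed at an adjusted p under 0.05 by edgeR's quasi-likelihood test with Benjamini-Hochberg adjustment and a block for the replicate number within each time. That gene was CYP1B1, which rose, and 0 genes fell. A further 24 genes, 14 with higher and 10 with lower values under SB203580, had an adjusted p of 0.051 to 0.0584. At an unadjusted p under 0.05 there were 851 genes with higher values (6%) and 577 with lower values (4.07%). All 4 libraries with SB203580 lay above all 4 with flagellin for 126 genes (0.889%) and below them for 76 genes (0.536%). Without the replicate block 0 genes passed and 405 had an unadjusted p under 0.05. DESeq2 with the same block called 179 genes, 110 of them higher and 69 lower. The median log2 fold change over all tested genes was 0.01, and 7310 of the 14172 were above 0.

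CYP1B1, a monooxygenase that oxidises aromatic hydrocarbons and steroids, was the gene that rose. It lies on chromosome 3 from 102195741 to 102206375 in the coordinates of the deposited table. Its level was 239, 165, 92.3 and 77 CPM in replicates 1 to 4 of SB203580 plus flagellin and 45.2, 40.3, 29 and 25.8 CPM in flagellin, so that the lowest culture with the inhibitor stood above the highest without it. The means were 143 ± 74.5 and 35.1 ± 9.21 CPM (SD, n = 4 each), and PBS cultures held 19.7 to 35.1 CPM. The log2 fold change was 1.93 (SE 0.27, adjusted p 0.0492 by edgeR), a fold of 3.82, and the level was higher in 4 of 4 replicate numbers. Its adjusted p left the threshold when any of replicates 1 to 3 of either group was left out, and was 0.034 to 0.185 over the 12 fits with a library or a replicate number left out. The log2 fold change in those fits was 1.75 to 2.04. Without the 3 libraries low in secretory or ciliated cell markers described further on, the log2 fold change was 1.62 with an adjusted p of 0.515. That fit keeps SB203580 libraries of 24 h from replicates 3 and 4 only.

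CYP1A1, the second member of the same enzyme family, had the largest difference of the genes named here, and did not pass the threshold. It lies on chromosome 7 from 58802880 to 58809775. Replicates 1 to 4 held 170, 68.8, 21.5 and 14.4 CPM with SB203580 and 10.3, 8.02, 3.73 and 2.67 CPM without, and again the groups did not overlap. Replicates 1 and 2 were the higher ones in both groups. PBS cultures held 2.29 to 10.5 CPM, close to the flagellin cultures. The log2 fold change was 3.11 (SE 0.51, adjusted p 0.051 by edgeR), and within the numbered pairs it was highest in replicate 1. AHRR, the repressor that competes with the receptor for its partner, held 12, 10.6, 1.27 and 1.42 CPM with SB203580 and 4.58, 7.5, 0.632 and 0.596 CPM without. Each numbered pair of AHRR was higher with the inhibitor, the groups overlapped because of the gap between replicates 1 and 2 and replicates 3 and 4, and the adjusted p was 0.472 (log2 fold change 0.98).

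The receptor's own gene AHR, singled out here after its values were seen, had 66.5 to 87 CPM with SB203580 and 49.6 to 105 CPM without, with a log2 fold change of -0.03. UGT1A6, a glucuronosyltransferase gene named by its position, had a log2 fold change of 0.14 and held 517 to 833 CPM in all 8 libraries. In the list of the receptor and its targets 12 genes were tested. CYP1B1 was called, CYP1A1 and AHRR had an unadjusted p under 0.05 without a call, beside 6% of all genes with higher values, and the 7 members not described singly had log2 fold changes of -0.40 to 0.11. The list's median of 0.04 stood beside 0.01 for all tested genes.

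**Figure D1:**
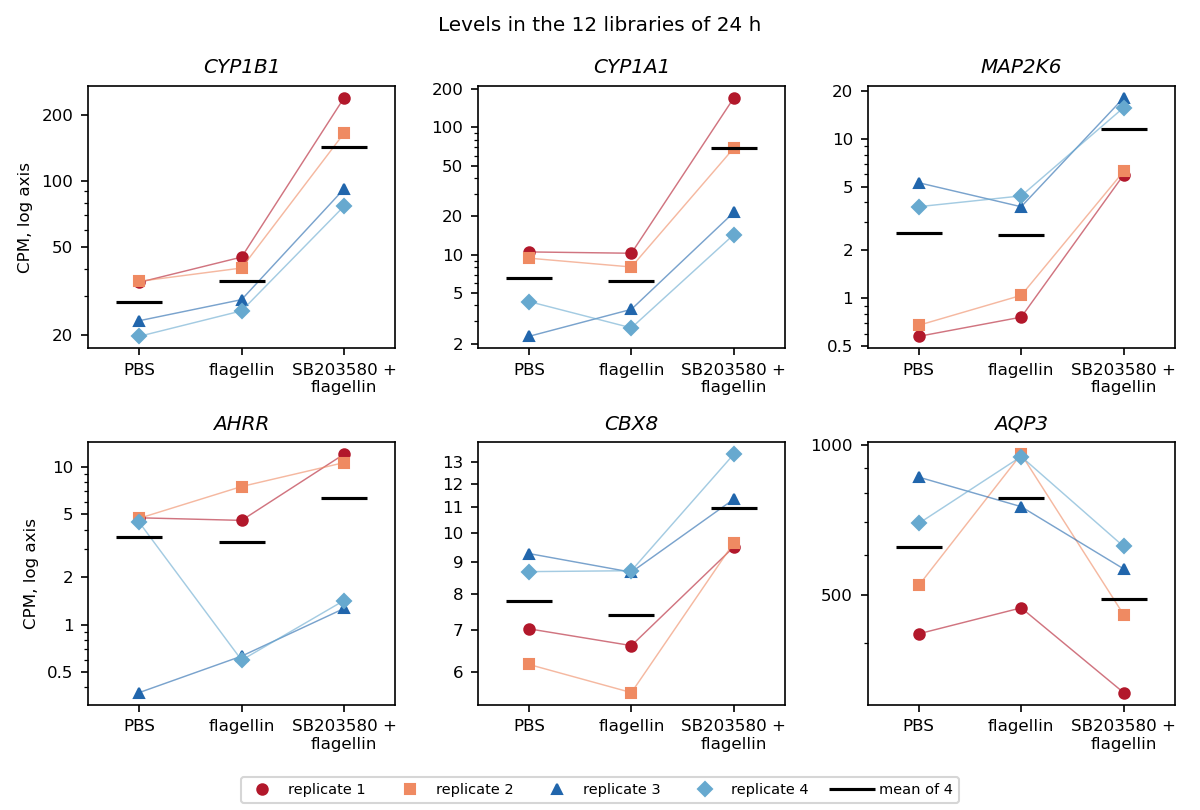
Level in CPM on a log axis of CYP1B1, CYP1A1, MAP2K6, AHRR, CBX8 and AQP3 in the 12 cultures of 24 h, with 1 symbol for each replicate number, lines joining libraries of the same number, and a bar at the mean of 4. CYP1B1, CYP1A1, MAP2K6 and CBX8 with SB203580 lie above every flagellin culture, and AQP3 is lower with SB203580 within each number.

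Among the kinases of the p38 pathway the difference was in MAP2K6, which encodes MKK6, a kinase that phosphorylates and activates p38. MAP2K6 lies on chromosome 12 from 10897104 to 11018943. It held 5.96, 6.27, 18.1 and 15.8 CPM with SB203580 and 0.763, 1.04, 3.76 and 4.4 CPM with flagellin alone, and all 4 of the first lay above all 4 of the second. PBS cultures held 0.578, 0.678, 5.32 and 3.77 CPM, so that replicates 3 and 4 were the higher ones in every group, the reverse of CYP1A1. The log2 fold change was 2.42 (SE 0.4, adjusted p 0.051 by edgeR). In a fit that estimates the effect within each set, MAP2K6 passed in replicates 1 and 2 (2.76, adjusted p 6.7e-05) and in replicates 3 and 4 (2.05, adjusted p 0.00098). Its span overlaps ABCA5 on the opposite strand, and the use of strand in counting is not given in the sources used here. ABCA5 itself had a log2 fold change of -0.05.

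The p38 alpha gene MAPK14, the main target of SB203580, held 93.4 to 120 CPM with the inhibitor and 72.5 to 114 CPM without. Its log2 fold change was 0.16 (adjusted p 0.552 by edgeR), though each of the 4 numbered pairs was higher. HSPB1, a small heat shock protein phosphorylated by the p38 effector MK2, had a log2 fold change of -0.42 and was higher with SB203580 in replicate 1 only. MAP2K6 was the only one of the 20 kinases, activators and effectors tested with an unadjusted p under 0.05, and the 17 not described singly lay between -0.18 and 0.25. None of 9 other kinases known to bind SB203580 had such a p, and they lay between -0.15 and 0.10. These counts stand beside 6% of all tested genes with higher and 4.07% with lower values at such a p.

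DUSP1, the phosphatase that inactivates p38 and JNK, held 141, 130, 118 and 120 CPM with SB203580 and 152, 210, 159 and 173 CPM without, so the groups did not overlap. Its log2 fold change of -0.44 had an adjusted p of 0.296 by edgeR. DUSP10, which acts on the same kinases, was higher in each pair (log2 fold change 0.41, adjusted p 0.289). They were the members of 12 phosphatases with an unadjusted p under 0.05, and pointed in opposite directions. Of all tested genes 6% had higher and 4.07% lower values at such a p.

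CBX8, a chromodomain subunit of Polycomb complex PRC1, held 9.51, 9.66, 11.3 and 13.4 CPM with SB203580 and 6.61, 5.56, 8.66 and 8.71 CPM without. The groups did not overlap and PBS cultures (6.17 to 9.28 CPM) lay with flagellin, but the adjusted p was 0.104 by edgeR (log2 fold change 0.58, SE 0.13). It was the only one of 15 PRC1 genes with an unadjusted p under 0.05, beside 6% of all tested genes with higher values at such a p.

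Besides the cytochromes and MAP2K6, 9 genes were taken by smallest unadjusted p among those higher with SB203580 in 4 of 4 replicate numbers (8.22% of all genes). None of the 9 passed the threshold by edgeR (adjusted p 0.051 to 0.058). Of all 14172 genes DESeq2 called 179, limma-voom 11, and a fit with the set (replicates 1 and 2, or 3 and 4) as block 13. Among the 9, DESeq2 called all 9, limma-voom called 5, and 3 passed in the fit with the set. The largest difference was that of SELENBP1, a selenium-binding methanethiol oxidase, with 23.6, 13.3, 4.01 and 3.71 CPM against 7.51, 8.88, 1.81 and 2.16 CPM (log2 fold change 1.04, SE 0.2). NRAP, an actin-anchoring protein best known from muscle, held 6.42, 5.75, 9.1 and 8.36 CPM against 2.82, 3.06, 4.81 and 4.91 CPM (log2 fold change 0.94). NRAP did not overlap between groups. Its count is uncertain where reads of the opposite strand could be included, since the use of strand is not given.

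Of genes for mitochondria and calcium, SFXN3, a mitochondrial serine carrier, had a log2 fold change of 0.91 and CRACR2A, a regulator of store-operated calcium channels, one of 0.76. NFE2L3, a transcription factor of the NRF family, held 25.9, 19.8, 14.1 and 12.6 CPM against 14.9, 9.59, 10.1 and 9.28 CPM (log2 fold change 0.68). SLC46A2, a membrane carrier, differed by 0.63 and EPHX2, the soluble epoxide hydrolase, by 0.33 on the log2 scale. UNG, the glycosylase that removes uracil from DNA, held 18.4 to 23.8 CPM with SB203580 and 12.1 to 15.9 CPM without, and the groups did not overlap (log2 fold change 0.55). POLR3K, a subunit of RNA polymerase III, had a log2 fold change of 0.44 and shares its span with RHBDF1 and SNRNP25.

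**Figure D2:**
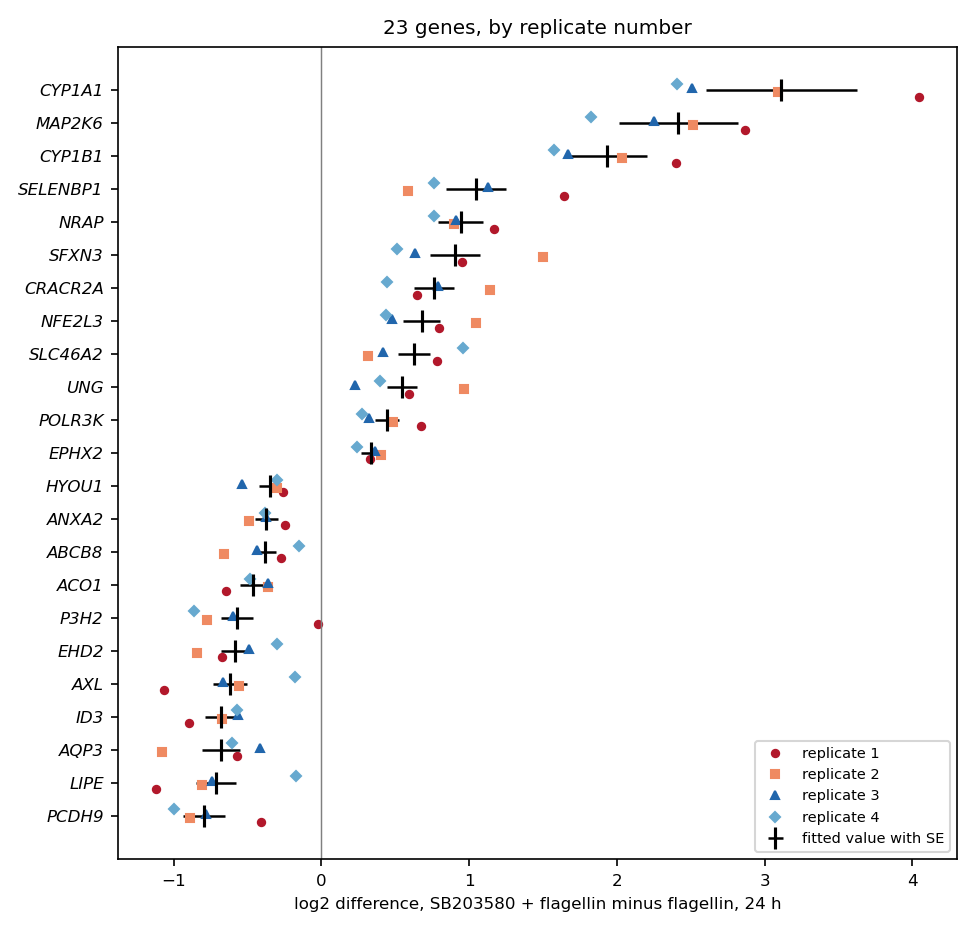
Log2 difference between SB203580 plus flagellin and flagellin at 24 h for each replicate number (symbols) and from the fit, with its SE (black), for 12 genes with higher and 11 with lower values. The 12 upper and 11 lower genes were chosen for the same sign in each of 4 numbers, so that agreement follows from the selection. CYP1A1, MAP2K6 and CYP1B1 lie farthest from 0.

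On the lower side 12 genes were taken in the same way among those lower in 4 of 4 replicate numbers (5.47% of all genes). Of the 12, 11 are described here, and their adjusted p-values were 0.051 to 0.0854 by edgeR. AQP3, the water and glycerol channel of basal airway cells, held 317, 456, 564 and 626 CPM with SB203580 and 470, 960, 753 and 950 CPM with flagellin alone. The groups overlapped because replicate 1 was low in both, and the log2 fold change was -0.68 (SE 0.13). ID3, an inhibitor of basic helix-loop-helix factors that responds to BMP signals, held 25.4, 37.8, 64.1 and 74.3 CPM against 47.3, 60.3, 94.8 and 110 CPM, also -0.68. EHD2, an ATPase at the neck of caveolae, held 202 to 528 CPM against 322 to 694 CPM, a log2 fold change of -0.58. It was lower in replicates 1 and 2 by 0.77 on the log2 scale with an adjusted p of 0.0359 in the fit by set.

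ANXA2, a calcium-dependent membrane-binding annexin, was the most abundant of these, with 2639 to 2930 CPM against 3176 to 3791 CPM, and every culture with SB203580 lay below every flagellin culture (log2 fold change -0.37). The same held for LIPE, the hormone-sensitive lipase (-0.71), and ACO1, the cytosolic aconitase that also serves as an iron sensor (-0.46). The span of ACO1 overlaps RIGI on the opposite strand. AXL, a receptor tyrosine kinase, differed by -0.62 and PCDH9, a protocadherin, by -0.79. P3H2, a collagen prolyl hydroxylase, held nearly the same in replicate 1 (201 against 204 CPM) and less in the other 3 pairs, with a log2 fold change of -0.57. ABCB8, a mitochondrial transporter, had -0.38 and HYOU1, a chaperone of the endoplasmic reticulum, -0.35.

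Of a panel of 38 early and inflammatory genes followed across the series 35 were tested, 0 were called by edgeR, and 4 had an unadjusted p under 0.05, namely CYP1A1, CBX8 and CSF1 with higher and DUSP1 with lower values. Among all tested genes 6% had higher and 4.07% lower values at such a p. DESeq2 called 2 of the 35, CYP1A1 (adjusted p 5.06e-07) and CBX8 (0.00672), and limma-voom called CYP1A1 (0.041). Of all 14172 genes DESeq2 called 179, with 110 higher and 69 lower, and limma-voom called 11. Outside the panel DESeq2 also called CD14 (adjusted p 0.00116), SOD2 (0.0293), TLR1 (0.0409), IL34 (0.0443) and PSMB10 (0.049), of which edgeR called none. These genes, all with higher values, were singled out from the 179, which also held the 69 with lower values. CSF1, the macrophage growth factor, held 17.9, 19.2, 31.8 and 36 CPM against 9.04, 18.1, 26.1 and 23.9 CPM (log2 fold change 0.48, adjusted p 0.469). The neutrophil chemokine CXCL8 held 64.6, 83, 14.4 and 21.5 CPM with SB203580 and 140, 130, 17.7 and 17.7 CPM without, so it was lower in replicates 1 to 3 and higher in replicate 4 (log2 fold change -0.51, SE 0.37). PTGS2, the inducible cyclooxygenase, held 284 CPM in replicate 2 of flagellin and 46.9 to 123 CPM in the other 7 libraries. Its log2 fold change was -0.70 with all libraries and -0.09 without that library, each with an adjusted p over the threshold.

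Other genes of the early response had no call by edgeR. The kinase-responsive factors FOS (-0.33) and JUNB (-0.37), the mRNA decay factor ZFP36 (-0.30) and its relative ZFP36L1 (-0.35) were each lower in 3 of 4 pairs. Of these ZFP36L1 had an unadjusted p under 0.05 (SE 0.13), as 1 of 11 decay factors with a lower value, beside 4.07% of all genes. The cytokine IL1A had -0.18 (SE 0.15) and the NF-kB inhibitor TNFAIP3 -0.09 (SE 0.13). IRF1, an interferon regulatory factor (0.22), CD83, a surface marker of activated cells (0.40), and the monocyte chemokine CCL2 (0.71) had positive values. The urokinase gene PLAU (-0.22) and the iron-binding defence protein LCN2 (0.53) were spread from pair to pair. The panel genes not described singly lay between -0.22 and 0.76, with a smallest unadjusted p of 0.199.

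By list, 24 immediate early factors had a median log2 fold change of -0.15, with 2 at an unadjusted p under 0.05, FOSB (-0.65) and JUND (-0.51, named by position), both lower. Over all tested genes 6% had higher and 4.07% lower values at such a p. NF-kB subunits and feedback genes had a median of 0.03, with 1 of 21 members at such a p. The 15 chemokines had a median of 0.36 and none at such a p. In the fits by set their median was 0.04 in replicates 1 and 2 and 0.13 in replicates 3 and 4. Of 22 cytokines 4 had higher values at an unadjusted p under 0.05, namely IL34, a ligand of the CSF1 receptor (0.82), the TNF family ligand TNFSF15 (0.88, named by position), IL15 (0.88) and CSF1. The 2 with lower values were CSF2 and IL17C, and IL17C did not exceed 0.621 CPM in any of the 8 libraries. IL34 was the one of them in which every culture with SB203580 (4.39 to 8.04 CPM) lay above every flagellin culture (2.69 to 3.56 CPM). TNFSF15 differed in replicates 1 and 2 (29.7 and 10.3 against 6.92 and 4.81 CPM) and hardly in replicates 3 and 4 (5.25 and 5.05 against 5.2 and 4.77 CPM).

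Interferon-stimulated genes mostly had positive values, larger in replicates 3 and 4, without passing. Of 26 tested, 24 had positive values, beside 7310 of all 14172 tested genes. The list's median was 0.27 and 0 members had an unadjusted p under 0.05. The median was 0.07 in replicates 1 and 2 and 0.69 in replicates 3 and 4. IFI6, a mitochondrial interferon-induced protein, held 109, 87.6, 17.3 and 14.3 CPM against 30.8, 58.4, 11.3 and 5.62 CPM (log2 fold change 1.05, SE 0.54). GBP2, a guanylate-binding protein, held 4.92 to 5.6 CPM with SB203580 and 3.66 to 4.33 CPM without, with no overlap (0.37, adjusted p 0.549).

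In the list of antigen processing, 3 of 13 genes had higher values at an unadjusted p under 0.05, beside 6% of all genes. The median was 0.17, with 0.08 in replicates 1 and 2 and 0.28 in replicates 3 and 4. The 3 were the immunoproteasome subunits PSMB10 (0.44) and PSMB9 (0.65) and the MHC class I regulator NLRC5 (0.49). PSMB10, whose span overlaps PSKH1 on the opposite strand, held 15.6, 15.2, 7.14 and 7.86 CPM against 14.4, 10.5, 4.9 and 5.22 CPM (adjusted p 0.172 by edgeR). Each of its pairs was higher with the inhibitor.

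**Figure D3:**
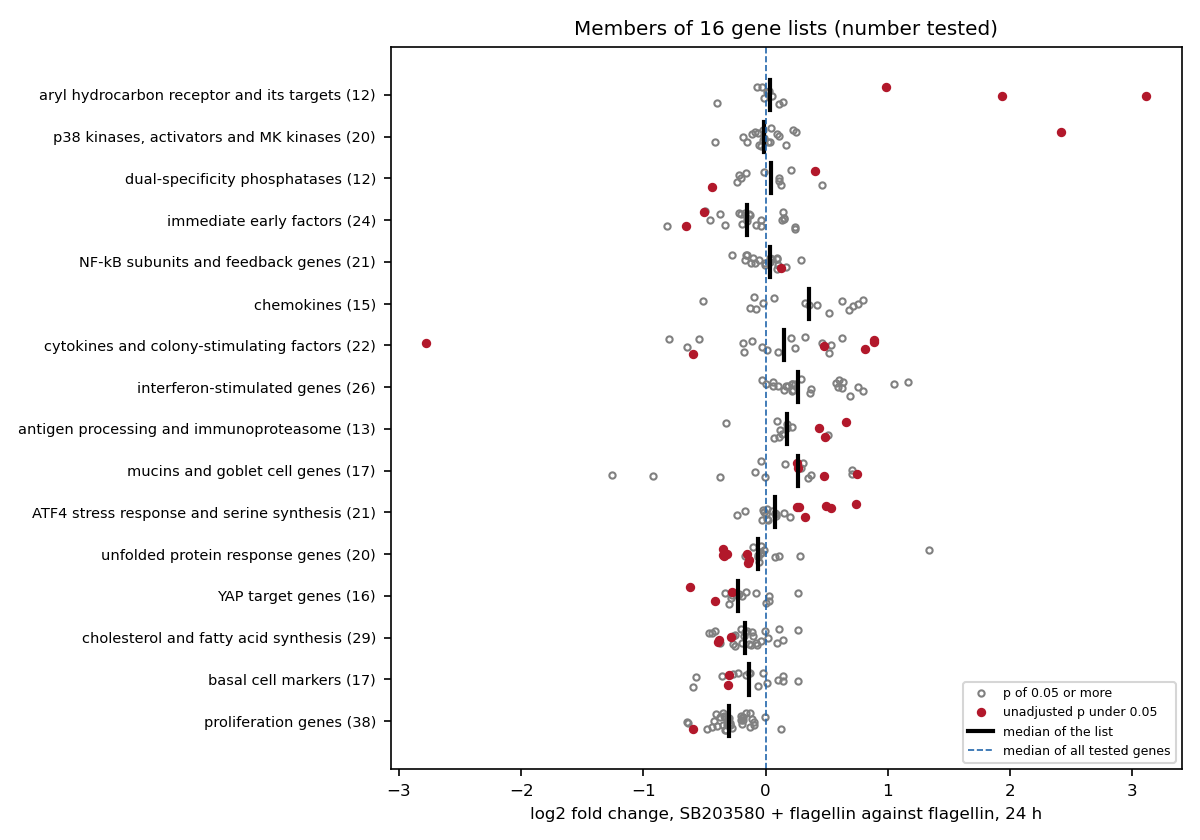
Log2 fold change at 24 h of the tested members of 16 gene lists, with members at an unadjusted p under 0.05 filled, a bar at each list's median and a dashed line at the median of all tested genes (0.01). CYP1A1, CYP1B1 and MAP2K6 stand to the right, and the medians of the 16 lists lie between -0.30 and 0.36.

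Of 19 antimicrobial and acute-phase genes, 2 had higher values at an unadjusted p under 0.05, beside 6% of all genes, and 0 lower, with a median of 0.25. They were the defensin DEFB1 (0.64) and the calcium-binding protein S100A12 (0.34), while the peptidoglycan-binding protein PGLYRP2 had the lowest value (-0.66). CD14, the co-receptor for lipopolysaccharide, held 119, 26.2, 9.97 and 12.5 CPM with SB203580 and 24.4, 11.2, 8.3 and 6.3 CPM without, with replicate 1 of SB203580 far above the rest. Its log2 fold change was 1.27 (SE 0.29, adjusted p 0.11 by edgeR), and 0.76 to 1.57 over the fits with a library or number left out. PIGR, the receptor that carries IgA across the epithelium, held 1134, 601, 255 and 97.4 CPM against 663, 163, 107 and 92.1 CPM (0.97, adjusted p 0.374). AGR2, a disulfide isomerase needed for mucin folding, held 264, 216, 65.2 and 70.6 CPM against 239, 105, 36.1 and 37.7 CPM (0.75, adjusted p 0.356).

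Of 17 mucin and goblet cell genes, 4 had higher values at an unadjusted p under 0.05 and 0 lower, beside 6% of all genes with higher values, and the median was 0.27. They were AGR2, ERN2, the goblet cell sensor of protein folding (0.48), GALNT12, which starts O-glycan chains (0.27), and BCAS1. GALNT12 did not overlap between groups (27.5 to 32.8 against 23.2 to 26.4 CPM). The gel-forming mucin MUC5AC, named by position, held 846, 607, 258 and 368 CPM against 1310, 264, 333 and 219 CPM, higher in 2 of 4 pairs (0.16, SE 0.39).

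MUC1, a membrane mucin named by position and singled out after its values were seen, differed between the sets of replicates. It held 57.1 and 62 CPM with SB203580 and 136 and 121 CPM without in replicates 1 and 2, and 79.7 and 103 against 73.2 and 74 CPM in replicates 3 and 4. The effect was -1.11 in the first set and 0.31 in the second, and the difference of 1.42 had an adjusted p of 0.032 by edgeR. It was the only gene of 14172 (0.00706%) called in that test, in which 938 had an unadjusted p under 0.05.

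NFE2L2, which encodes the oxidant sensor's factor NRF2, held 242, 233, 165 and 155 CPM against 146, 136, 147 and 150 CPM, so the groups did not overlap while replicates 3 and 4 were close. Its log2 fold change was 0.44 (adjusted p 0.223), 0.75 in replicates 1 and 2 (adjusted p 0.0422 in the fit by set) and 0.11 in replicates 3 and 4. SOD2, the mitochondrial superoxide dismutase, had 0.47 and was higher in each pair. In the list of the ATF4 response and serine synthesis 6 of 21 genes had higher values at an unadjusted p under 0.05 and 0 lower, beside 6% of all genes with higher values. The median was 0.08, with 0.00 in replicates 1 and 2 and 0.09 in replicates 3 and 4. The 6 included PHGDH (0.74) and PSAT1 (0.53), the first enzymes of serine synthesis, ASNS, the asparagine synthetase (0.26), and DDIT3, the stress factor CHOP (0.49, named by position). PHGDH held 56.5, 54.2, 65.2 and 103 CPM against 33.2, 56.7, 38.3 and 39.2 CPM, and replicate 2 was the pair that was not higher. The span of DDIT3 overlaps MARS1 on the opposite strand.

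In the list of the unfolded protein response 7 of 20 genes had lower values at an unadjusted p under 0.05 and 0 higher, beside 4.07% of all genes with lower values. They were chaperones and folding enzymes of the endoplasmic reticulum, HYOU1, CALR (-0.32), CRELD2 (-0.35), HSPA5 (-0.34), PDIA6, HSP90B1 and DNAJB11. CRELD2 held 11 to 15.6 CPM with SB203580 and 15.6 to 23.3 CPM without. CALR held 517, 400, 497 and 433 CPM against 581, 503, 619 and 588 CPM, lower in each pair (adjusted p 0.132 by edgeR). ERN1 went the other way, with the highest value of the list (1.34, SE 0.63, adjusted p 0.496 by edgeR). It was higher in each pair, and its unadjusted p of 0.0505 lay just over 0.05. The list's median was -0.06.

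Of 29 genes of cholesterol and fatty acid synthesis 3 had lower values at an unadjusted p under 0.05, beside 4.07% of all genes, and 0 higher, with a median of -0.17. They were the sterol enzyme SQLE (-0.39) and the factors SREBF2 (-0.28) and SREBF1 (-0.38), each highest in replicate 2 of flagellin. Of 30 glycolysis and hypoxia genes 3 had lower values and 1 a higher one at an unadjusted p under 0.05, beside 4.07% and 6% of all genes. PKM, the pyruvate kinase, held 2332, 2036, 3210 and 3456 CPM against 2680, 3041, 4025 and 3787 CPM (-0.31, adjusted p 0.172). SLC16A3, a lactate exporter, differed in replicates 1 and 2 (26.1 and 19.1 against 50 and 53.8 CPM) more than in replicates 3 and 4 (45.2 and 55 against 57.8 and 56 CPM). The clock repressor CRY1 was lower in each pair (-0.37, adjusted p 0.0951).

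Of 16 YAP target genes 3 had lower values at an unadjusted p under 0.05 and 0 higher, beside 4.07% of all genes with lower values. The median was -0.23, with 0.05 in replicates 1 and 2 and -0.33 in replicates 3 and 4. They were AXL, the kinase LATS2 (-0.27) and F3, the tissue factor that starts coagulation. F3 held 2575, 2695, 2626 and 2495 CPM with SB203580 and 3713, 2886, 3663 and 3689 CPM without, and no culture of one group reached the other (-0.42, adjusted p 0.249 by edgeR). ERRFI1, a feedback inhibitor of the EGF receptor, was lower in each pair (-0.46). In the basal cell list 2 of 17 had lower values at an unadjusted p under 0.05, beside 4.07% of all genes, and 0 higher. The 2 were the hemidesmosome collagen COL17A1 (-0.30) and the laminin chain LAMB3 (-0.31).

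The cell cycle gene CCND1, encoding cyclin D1, held 456, 734, 681 and 712 CPM against 903, 712, 1023 and 955 CPM (-0.48, adjusted p 0.223). Of 38 proliferation genes 1 had a lower value at an unadjusted p under 0.05, beside 4.07% of all genes. It was the replication licensing factor CDT1 (-0.60). The list's median was -0.30 and 1 of 38 had a positive value, beside 7310 of all 14172 tested genes. The sets differed, with a median of -0.78 in replicates 1 and 2 and 0.16 in replicates 3 and 4.

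In RNA of whole cultures, fewer cells of a type and less RNA per cell cannot be told apart. The 38 ciliated cell markers had a mean log2 CPM of 1.93, 0.99, 0.63 and 0.20 in replicates 1 to 4 of flagellin and 0.71, 0.24, 0.98 and 1.03 with SB203580. Their median log2 fold change was -1.21 in replicates 1 and 2 and 0.57 in replicates 3 and 4, with 0 members at an unadjusted p under 0.05. FOXJ1, the master regulator of cilia, held 6.96, 3.46, 3.47 and 3.65 CPM against 18.3, 8.17, 3.28 and 1.53 CPM. The defining secretory gene SCGB1A1 ranged from 0 to 14.8 CPM.

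The 19 club and secretory markers stood at 6.73, 6.10, 4.62 and 4.48 in flagellin and 6.36, 6.39, 5.01 and 4.62 with SB203580, and 29 squamous and cornified envelope genes at 5.97, 7.79, 5.45 and 5.74 against 8.32, 6.77, 5.45 and 4.68. Squamous genes were thus highest in replicate 1 of SB203580 and replicate 2 of flagellin. The proliferation genes were highest in replicate 2 of flagellin, at 4.73 where the other 7 libraries lay between 2.51 and 3.84. Basal markers spanned 7.17 to 7.90. For flagellin replicate 2, and for replicates 1 and 2 with the inhibitor, the values were low in secretory or ciliated markers against others of their set. Without these 3 libraries 0 genes were called and 923 had an unadjusted p under 0.05. That fit keeps SB203580 libraries of 24 h from replicates 3 and 4 only, so marker level and set cannot be told apart in it. The 13 alveolar type 1 and type 2 markers had a median log2 fold change of 0.42 (0.70 in replicates 1 and 2, 0.44 in replicates 3 and 4). Of the 13, 1 was higher at an unadjusted p under 0.05, beside 6% of all tested genes. The mean log2 CPM of the 13 was 5.70 in replicate 2 of SB203580 and 3.61 to 4.61 in the other 7 libraries. The part of these markers in the differences of CD14, PIGR, AGR2, MUC1, PTGS2 and the proliferation genes was not tested.

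**Figure D4:**
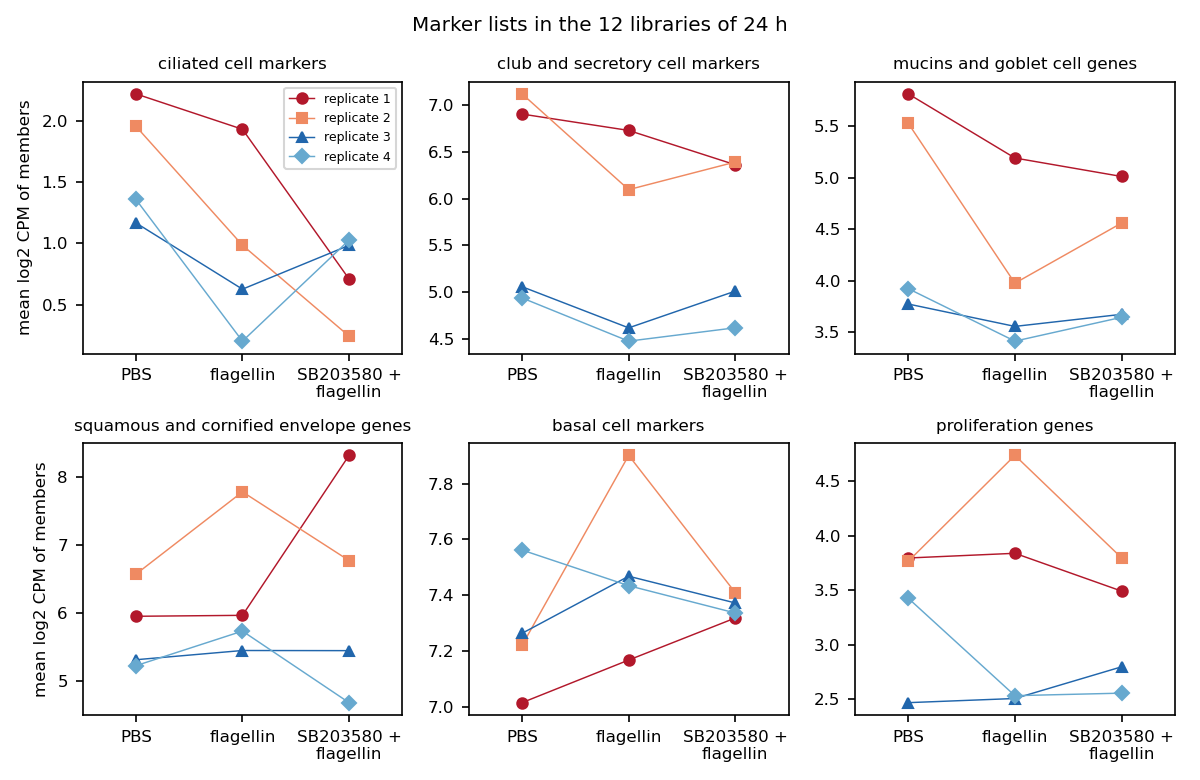
Mean log2 CPM of the tested members of 6 marker lists in the 12 cultures of 24 h, with lines joining libraries of the same replicate number. Ciliated markers are lower with SB203580 than with flagellin alone in replicates 1 and 2 and higher in replicates 3 and 4, and proliferation genes peak in replicate 2 of flagellin.

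The sets were also fitted separately within all 24 libraries. In replicates 1 and 2, 33 genes (0.233%) were called, 28 higher and 5 lower, among them CYP1B1 (2.24, adjusted p 0.00607), UNG (0.77), POLR3K (0.59), NFE2L2, EHD2 and MUC1. When replicates 1 and 2 were fitted alone 2 genes were called, CYP1B1 and MAP2K6, and the adjusted p was 0.0707 for MUC1, 0.284 for UNG, 0.2845 for EHD2, 0.289 for NFE2L2 and 0.294 for POLR3K. In replicates 3 and 4 the call was MAP2K6 alone (0.00706%), and CYP1B1 had 1.63 with an adjusted p of 0.38. A call in one set and not in the other does not show a difference, and for CYP1B1 the difference between sets did not pass. With a term for the set in place of the replicate number, 13 genes (0.0917%) were called in the whole comparison, 10 higher and 3 lower, and these included CYP1B1 (adjusted p 0.00408), MAP2K6 (0.0173) and CYP1A1 (0.0289).

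The same inhibitor under 2 h of flagellin gave the nearest comparison, with no library in common. In the same fit 25 genes (0.176%) were called at 2 h, and 0 genes differed between the times by edgeR, where 643 had an unadjusted p under 0.05 and the smallest adjusted p was 0.545. DESeq2 called 16 genes in that test. CYP1B1 was higher by 1.01 at 2 h and 1.93 at 24 h, CYP1A1 by 1.39 and 3.11, and MAP2K6 by 1.52 and 2.42, on the log2 scale. The level of CYP1B1 without inhibitor was 229 ± 115 CPM at 2 h and 35.1 ± 9.21 CPM at 24 h (SD, n = 4 each), and with SB203580 it was 508 ± 282 and 143 ± 74.5 CPM. CBX8 had its larger value at 2 h, 1.45 (adjusted p 0.00017 by edgeR) against 0.58 at 24 h, and this difference did not pass either.

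Of the early-response genes named above, 4 that fell at 2 h are set beside their values at 24 h. TNFAIP3 had -0.93 at 2 h (adjusted p 0.009995 by edgeR) and -0.09 at 24 h. IL1A had -1.01 (adjusted p 0.009995) and -0.18, ZFP36 -1.12 (adjusted p 0.0324) and -0.30, and IRF1 -0.69 (adjusted p 0.0245) and 0.22. For none of these 4 did the difference between the times pass. DUSP1 had -0.73 and -0.44. Of the genes taken by smallest p on the lower side at 24 h, the 11 described had no call at 2 h by edgeR, beside 0.176% of all tested genes called. At 2 h ID3 had -0.36, PCDH9 -0.21, AQP3 0.16, P3H2 0.15 and ANXA2 0.01. The 4 genes were chosen for a call at 2 h and the 11 for their p at 24 h. Smaller values at the other time are therefore favoured by the selection.

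**Figure D5:**
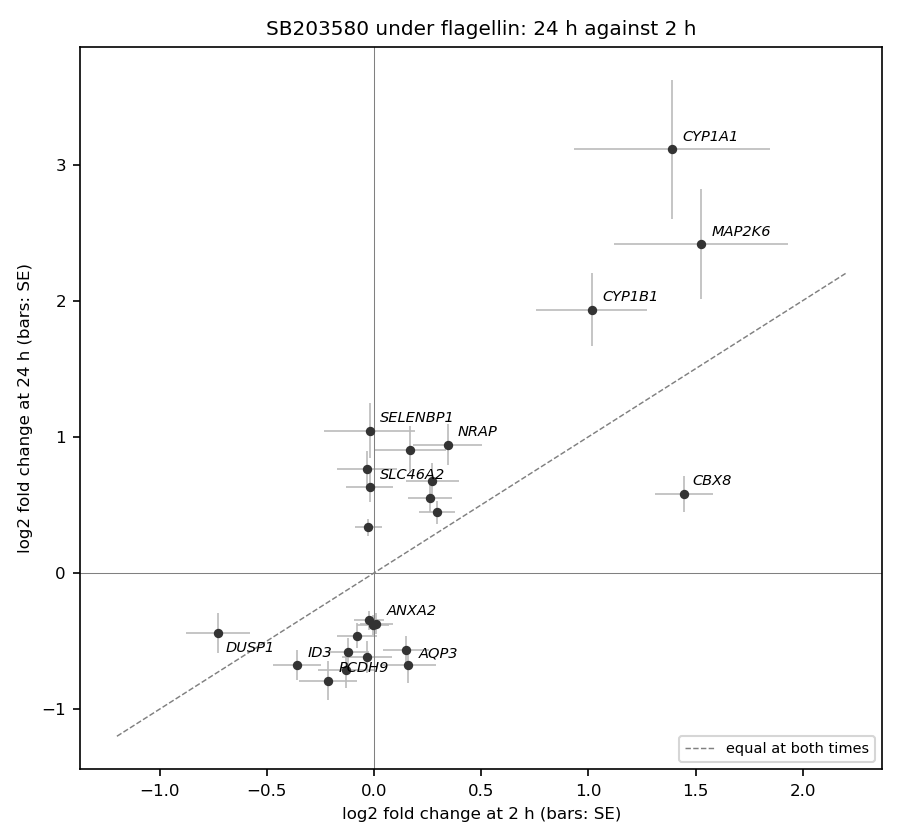
Log2 fold change of SB203580 plus flagellin against flagellin at 24 h (vertical) and 2 h (horizontal), with SE bars, for the genes in the plot of differences by replicate number, CBX8 and DUSP1; the dashed line marks equal values. CYP1A1, CYP1B1 and MAP2K6 are above 0 at both times, CBX8 is below the line, and AQP3, ANXA2 and P3H2 lie near 0 at 2 h. Apart from CBX8 and DUSP1, the genes were chosen by their values at 24 h.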

How the data were processed

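RNA of 24 cultures in 6 groups of 4 had been sequenced in pairs of reads, per the labels' protocols. The authors deposited 1 table of raw read counts for each gene. The submitters' processing notes name STAR 2.4.0a, Subread 1.4.6-p1, featureCounts and the mouse build GRCm38. The feature identifiers are those of pig genes, while their assembly, and whether counting used strand, is not given in the sources used here. Of 31868 features the 25880 pig genes were kept; other features took at most 0.00514% of a library. Symbols came by identifier for 14857 genes and, for 1606 more, from the RefSeq gene of Sscrofa11.1 overlapping at least 0.5 of both spans, a step that gave the same symbol for 92.6% of 12808 genes named both ways.

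Counts of all 24 libraries were fitted with edgeR 4.0.16 (R 4.3.3) on group and replicate number within each time, after TMM scaling (factors 0.836 to 1.07) and filterByExpr, with 12 residual degrees of freedom and a threshold of 0.05. On simulated counts this fit recovered 87% of changes of 1 and 98% of changes of 2 on the log2 scale, with 9 false calls among 14087 genes. In the simulation all treatments of a replicate number within a time shared a mean apart from the added changes. Every gene had the same dispersion. The block therefore fitted by design, and these rates do not give the power in the real libraries. The numbers were checked for pairing at 24 h: deviations of same-numbered libraries correlated at 0.43, 0.58, 0.78 and 0.65 for replicates 1 to 4, mainly through the 2 sets, as replicate 1 of SB203580 was closer to replicate 2 of flagellin (0.69) and replicate 4 to replicate 3 (0.73). No libraries were duplicates (chi-square per gene of at least 10.8 within groups). DESeq2 1.42.0 and limma 3.58.1 (voom), other scalings and filters, and fits without single libraries were alternatives. Named genes were a panel of 38, up to 12 genes in each direction by size among called genes or else smallest p (same sign in 4 of 4 numbers, mean CPM of at least 1, symbol by identifier), and up to 4 per list. The members, lists and alternatives were chosen with earlier results of these data known, and the fit without 3 libraries was added after seeing the data. Results for a few genes are not reported here.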

Additional observations from a re-analysis of the deposited data

Results flagged for a closer look

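In 8 groups of 4 libraries, 1 library stood far from the other 3 by Dixon's ratio, out of 198 groups examined (4.04%), while chance gives about 1 in 20. Replicate 2 of flagellin accounted for 4 of them. It held 284 CPM of PTGS2 where the other 3 held 73.6 to 77.9, 23.3 CPM of CRELD2 (others 15.6 to 16.3), 2886 CPM of F3 (others 3663 to 3713) and 12.1 CPM of UNG (others 15.6 to 15.9). Replicate 1 of flagellin held 13.8 CPM of CCL2 (others 1.96 to 2.67), and replicate 4 held 3.66 CPM of GBP2 (others 4.21 to 4.33). With SB203580, replicate 1 held 6.96 CPM of FOXJ1 (others 3.46 to 3.65) and 456 CPM of CCND1 (others 681 to 734).

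The effect on MUC1 differed between the sets of replicates. It was -1.11 in replicates 1 and 2 and 0.31 in replicates 3 and 4 on the log2 scale, a difference of 1.42 with an adjusted p of 0.032 by edgeR's quasi-likelihood test of the difference.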

How the results depend on the processing

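The count of 1 called gene depended on nearly every choice, with adjusted p-values of many genes just over the threshold. Without the replicate block 0 genes were called (405 at an unadjusted p under 0.05), and with a replicate block shared over both times 0. A block for the set within each time gave 13. With the replicate block on the 12 libraries of 24 h alone 2 genes were called and on the 8 libraries compared 0, and replicates 1 and 2 alone gave 2. Scaling by library size alone gave 16 (11 higher, 5 lower), no count filter 0, the stricter filter of CPM 1 23 (13 and 10), DESeq2 179 and limma-voom 11. Leaving out a library or replicate number gave 0 to 18 genes, with 18 without replicate 4 of SB203580, 9 without replicate 4 of flagellin and 13 without both. Leaving out replicate 1 of flagellin, or number 1 in both groups, gave 1 gene, P3H2, lower. Without the 3 libraries low in secretory and ciliated markers, chosen after seeing the data, 0 were called. The libraries with SB203580 at 24 h in that fit were those of replicates 3 and 4 only. The difference between times gave 16 genes by DESeq2 and 0 in the other fits run.

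CYP1B1 kept its direction in all 26 alternatives (1.62 to 2.24) and was called in 11 of them, CYP1A1 in 6 and MAP2K6 in 8. Some genes with no call changed sign. Without the block MUC5AC had -0.0326. Replicates 1 and 2 alone gave -0.011 for IRF1, -0.11 for LCN2, -0.13 for MUC5AC and 0.20 for AHR. Replicates 3 and 4 alone gave 0.30 for MUC1, 0.00689 for CXCL8, 0.22 for PLAU and 0.56 for FOXJ1. Without the 3 libraries, which leaves SB203580 at 24 h in replicates 3 and 4 only, MUC1 had 0.21, PLAU 0.11 and FOXJ1 0.29. Scaling by library size alone gave 0.00501 for AHR. Leaving out single libraries or numbers gave -0.24 to 0.0228 for TNFAIP3, -0.18 to 0.45 for MUC5AC and -0.18 to 0.0546 for AHR. The cause of these changes was not tested. Genes with a few counts in a library, such as IL17C, were limited by depth.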
